A study of Hyphopichia burtonii with 8 samples.

Results

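RPS42 (HYPBUDRAFT_152099) and TIF5 (HYPBUDRAFT_109174) are 2 of the 6166 genes measured in the yeast Hyphopichia burtonii, and both passed the filter on low values. They were chosen by their own measured levels, as translation genes that were low in NaCl and in no other medium. Every comparison of NaCl, KCl or sorbitol with YPD, and of NaCl with KCl or sorbitol, was used in that choice, so the values of the pair in those comparisons are given as a description and without a test. All libraries came from the wild-type strain KJJ43, obtained from Nuruk, a starter used for Korean rice wine. The solutes NaCl, KCl and sorbitol were each present at 1 M in YPD broth, the rich control medium, and cells from a preculture spent 1 h in each medium from a starting OD600 of 0.6. Each medium had 2 libraries. Nothing in the labels says that these were separate cultures, so p-values cover the spread between libraries alone, which may be technical.

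The small ribosomal subunit, loaded with initiator tRNA by the GTPase eIF2, scans a messenger RNA for its start codon. TIF5 encodes eIF5, which binds eIF1, the beta subunit of eIF2 and the c subunit of eIF3, and which triggers GTP hydrolysis by eIF2 when the start codon is met. The exchange factor eIF2B then recharges eIF2 with GTP. In Candida albicans the symbol RPS42 belongs to a gene for ribosomal protein S4 of the small subunit. Genes for ribosomal proteins are among the most abundant transcripts of growing yeast, and in Saccharomyces cerevisiae many stresses lower them together. Both symbols were given by the annotation of another strain of the species, and no sequence of either gene was used here.

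Levels are FPKM values (fragments of a gene relative to its length and to the depth of the library). They are relative values, so a lower value does not tell less of that transcript per cell from more of the others. RPS42 was at 137 and 151 FPKM in NaCl, 622 and 556 FPKM in KCl, 663 and 633 FPKM in sorbitol, and 296 and 324 FPKM in YPD (replicates 1 and 2 in each medium). The NaCl libraries were the lowest, the YPD libraries stood between, and the KCl and sorbitol libraries were the highest, with no overlap between NaCl, YPD and the other media. The mean was 144 ± 9.68 FPKM in NaCl, against 310 ± 19.9 FPKM in YPD (SD, n = 2 each). This was a log2 change of -1.10 ± 0.13 (estimate ± standard error of the fit over all genes, on the scale of log2(FPKM + 1), as for every log2 change here). RPS42 was thus not only low in NaCl: it averaged 589 ± 46.8 FPKM in KCl and 648 ± 20.6 FPKM in sorbitol, or 1.90 and 2.09 times the YPD mean. The log2 differences from YPD were 0.92 ± 0.13 in KCl and 1.06 ± 0.13 in sorbitol. Between the salts the gap was wider, at 24.4% of the KCl mean in NaCl (log2 difference -2.02 ± 0.13). Against sorbitol the log2 difference of NaCl was -2.16 ± 0.13.

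TIF5 was at 59.9 and 66.3 FPKM in NaCl, 214 and 215 FPKM in KCl, 211 and 245 FPKM in sorbitol, and 172 and 197 FPKM in YPD. NaCl was again lowest and lay far below the other media, which stood close together. Its mean was 63.1 ± 4.55 FPKM in NaCl and 184 ± 17.9 FPKM in YPD (SD, n = 2 each), which is 34.2% of the YPD mean and a log2 change of -1.53 ± 0.14. The means were 215 ± 0.311 FPKM in KCl and 228 ± 24.0 FPKM in sorbitol. The corresponding log2 differences from YPD were 0.22 ± 0.14 and 0.30 ± 0.14, smaller than those of RPS42, although the KCl and the sorbitol libraries were all above the YPD libraries. They kept their sign but not their size. With 1 library left out, the difference of KCl lay between 0.12 (without YPD replicate 1) and 0.32. That of sorbitol lay between 0.20 (without sorbitol replicate 2) and 0.41, and was 0.079 with libraries scaled to the same total. NaCl differed from KCl by -1.75 ± 0.14 and from sorbitol by -1.83 ± 0.14 log2 units. In order of level, the media ran NaCl, YPD, KCl and sorbitol for both genes. For TIF5 the libraries of KCl and sorbitol overlapped, and for RPS42 the gap between KCl and sorbitol was of the size of the replicate SDs.

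Separation of 2 libraries from 2 others was common in these data. Among the 5765 genes tested, both NaCl libraries were below both YPD libraries for 33.9%, below both KCl libraries for 28.9% and below both sorbitol libraries for 32.5%. Both KCl libraries were above both YPD libraries for 28.5% of genes, and both sorbitol libraries were above them for 26.8%. The lack of overlap therefore says little by itself about the pair, and the size of the differences describes it better.

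**Figure D1:**
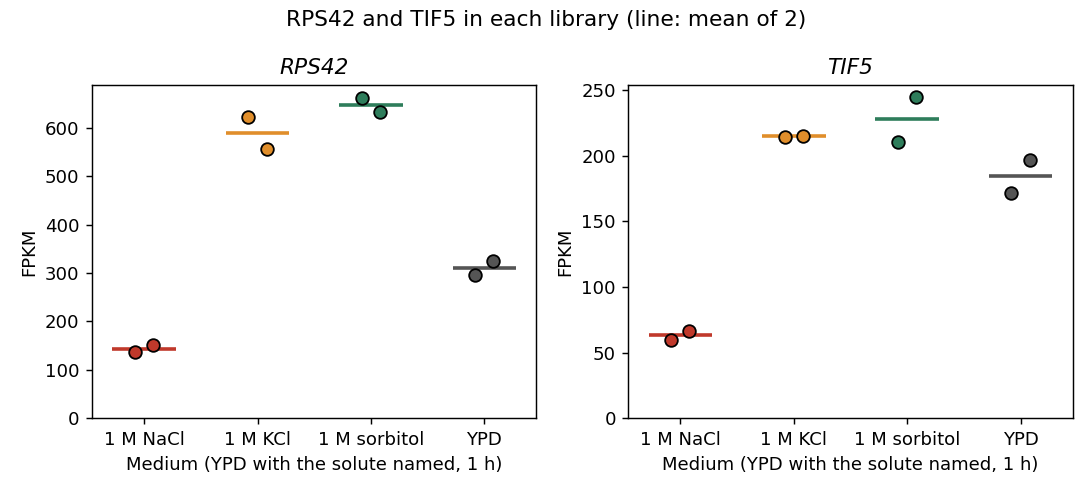
Level of RPS42 (left) and TIF5 (right) in FPKM on a linear axis, with 1 point per library and a line at the mean of the 2 libraries of each medium. Both genes are lowest in NaCl. RPS42 in KCl and sorbitol (556 to 663 FPKM) is well above YPD (296 and 324 FPKM), whereas TIF5 in those media (211 to 245 FPKM) is nearer to YPD (172 and 197 FPKM).

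KCl against sorbitol was not free of the choice of the genes either. A gene low in NaCl alone is low in neither KCl nor sorbitol, so a small difference between these was in part fixed beforehand. The p-values below are therefore no independent test of the pair. Neither gene was called there. RPS42 gave a log2 difference of -0.14 ± 0.13 (95% interval -0.43 to 0.15, limma adjusted p = 0.58) and TIF5 one of -0.08 ± 0.14 (95% interval -0.40 to 0.24, limma adjusted p = 0.80), where 6.18% of all genes were called. The sign of both estimates turned when libraries were scaled to the same total (0.10 for RPS42 and 0.16 for TIF5), and that of RPS42 also under quantile normalization (0.02). Without sorbitol replicate 2 the TIF5 estimate also turned, to 0.03.

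The ratio of RPS42 to TIF5 was not constant over the media. RPS42 was at 2.29 and 2.28 times the level of TIF5 in NaCl, 2.90 and 2.59 times in KCl, 3.15 and 2.59 times in sorbitol, and 1.73 and 1.65 times in YPD. The pair was closest in YPD and farthest apart in KCl and sorbitol, where RPS42 exceeded its own YPD level by more than TIF5 did. By level, RPS42 held rank 1085 and 1007 among the 5765 genes in the NaCl libraries, against ranks 520 to 552 in YPD and 331 to 338 in KCl and sorbitol. TIF5 held rank 2088 and 1941 in NaCl, against 776 and 867 in YPD.

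Set beside the other genes of the small subunit, RPS42 stood apart in level. It also differed in its pattern over media, but RPS42 was chosen for being low in NaCl, so that part follows from the choice. Of 28 genes with a small-subunit symbol, RPS42 was the lowest in every library. It was at 3.11% and 3.16% of the median of the other 27 in NaCl, at 10.1% and 11.2% in KCl, at 9.64% and 10.8% in sorbitol, and at 5.93% and 6.10% in YPD. The next lowest, RPS30, was at 1066 FPKM or more in each library. Over both subunits, RPL7 and RPP1 were below RPS42 in all libraries, and RPL82 was below it in KCl and in sorbitol replicate 1. The symbol RPP1 names an RNase P subunit in S. cerevisiae, so that row may not be a ribosomal protein at all.

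The annotation also has RPS4A (HYPBUDRAFT_111901), a symbol that in S. cerevisiae belongs to ribosomal protein S4 of the small subunit. RPS4A was at 4044 and 4151 FPKM in NaCl, 5290 and 4331 FPKM in KCl, 5974 and 5545 FPKM in sorbitol, and 4382 and 5000 FPKM in YPD. It was called in none of the comparisons with YPD, with a log2 change of -0.19 ± 0.14 in NaCl (limma adjusted p = 0.33). Against sorbitol RPS4A was called lower in NaCl, as RPS42 was lower there (log2 difference -0.49 ± 0.14, limma adjusted p = 0.028). The count of such small-subunit calls was not stable, as given below. RPS42 amounted to 3.39% and 3.63% of RPS4A in NaCl, 11.8% and 12.8% in KCl, 11.1% and 11.4% in sorbitol, and 6.75% and 6.48% in YPD. The values of RPS42 thus did not follow RPS4A at a fixed ratio. How alike the sequences of these genes are, and whether fragments of 1 were counted to the other, was not tested.

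**Figure D2:**
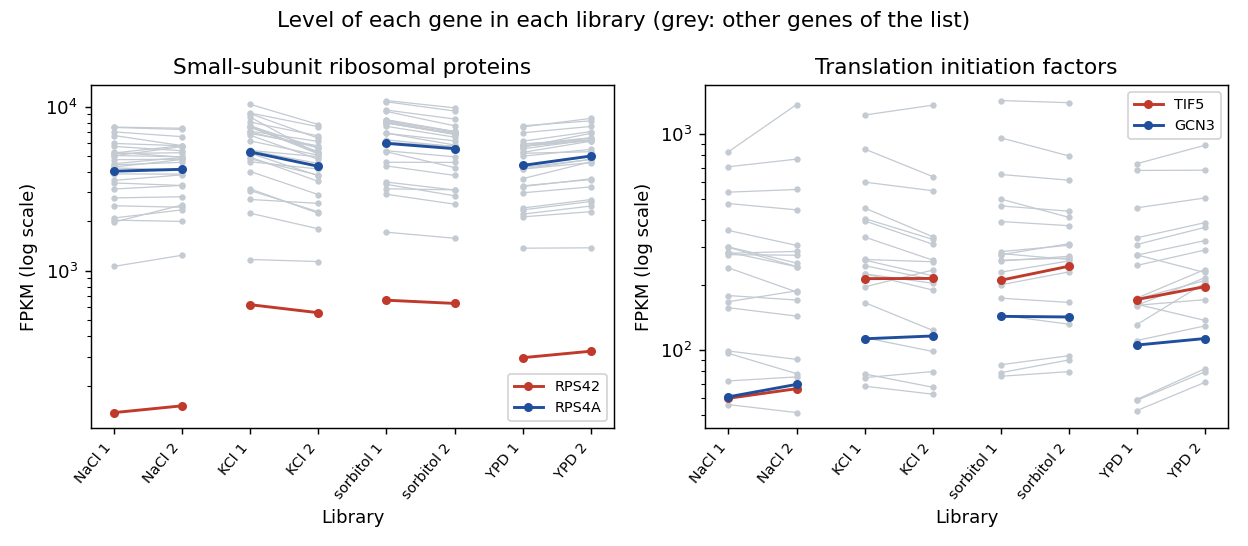
Level in FPKM (log axis) of each small-subunit ribosomal protein gene (left) and each translation initiation factor gene (right) in the 8 libraries, with a line joining the 2 libraries of a medium. RPS42 lies below every other small-subunit gene in every library, and TIF5 lies among the lowest initiation factor genes in NaCl, near GCN3, but in the middle of them in the other media.

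No other small-subunit gene was called in NaCl against YPD. Of the 27, limma called 0 higher and 0 lower (2 lower and 0 higher at an unadjusted p under 0.05), while 16.0% of all genes tested were called higher and 11.5% lower. The median log2 change of the 27 was -0.14, between -0.42 and 0.10, beside 0.00 over all genes. That median turned to 0.12 under quantile normalization and to 0.03 with libraries scaled to the same total, so no direction holds for the group. RPS42 minus the median of the other 27 was -0.96 log2 units with the values as deposited and -1.33 under quantile normalization. In KCl the 27 genes had a median of 0.09 with 0 called (2 at an unadjusted p under 0.05, both higher), against 6.45% of all genes called higher and 4.51% lower. In sorbitol their median was 0.32 with 0 called (11 at an unadjusted p under 0.05, all higher). Of all genes, 3.75% were called higher there and 1.21% lower. Without adjustment, 894 of the 5765 genes were higher in KCl and 803 in sorbitol by the same cut. The 11 of the 27 are a larger share than that in sorbitol, and the 2 a smaller share in KCl. The sorbitol median of the 27 shrank to 0.029 under quantile normalization and to 0.098 with libraries scaled to the same total. RPS42 was above those medians by 0.83 in KCl and 0.74 in sorbitol.

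NaCl against the other solutes gave a less even picture. Against KCl, 0 of the 27 small-subunit genes were lower by limma, with 3.99% of all genes called lower. At an unadjusted p under 0.05, 4 of the 27 were lower, beside 679 of the 5765 genes. Against sorbitol, 16 of the 27 were lower with a median of -0.49, where 13.6% of all genes were called lower. This count is not stable: it was 1 under quantile normalization, which also turned the median to 0.09, 2 with libraries scaled to the same total, 4 without the intensity trend, and 1 without NaCl replicate 1 or sorbitol replicate 1. It was 4 without NaCl replicate 2, 5 without sorbitol replicate 2, 8 without YPD replicate 1 and 7 without YPD replicate 2. For RPS42 itself the log2 difference between NaCl and sorbitol lay between -2.18 and -1.77 under the scalings tried.

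TIF5 stood in the middle of the initiation factors except in NaCl. Of 19 other initiation factor genes, 1 was below TIF5 in each NaCl library, against 7 and 9 in KCl, 7 and 7 in sorbitol, and 9 and 7 in YPD. TIF5 was at 21.6% and 27.2% of the median of the others in NaCl, against 80.8% to 97.2% in KCl and sorbitol, and 99.4% and 90.9% in YPD. Minus the median log2 change of the other 19, a different measure, its log2 change in NaCl against YPD was -1.64. Under the scalings tried this difference lay between -1.64 and -1.63. By that measure TIF5 lay near the list median in the other media against YPD, 0.05 above it in KCl and, with a difference of -0.08, slightly below it in sorbitol.

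In NaCl 3 of the 19 initiation factor genes rose and 1 fell against YPD, a share near that of all genes (16.0% higher and 11.5% lower). The list median was 0.11, and between 0.011 and 0.28 under the other scalings. SUI1, which encodes eIF1, a direct partner of eIF5, was at 707 and 767 FPKM in NaCl, against 456 and 507 FPKM in YPD. It rose by 0.61 ± 0.12 log2 units (limma adjusted p = 0.0079; 0.059 at most when NaCl replicate 2 or YPD replicate 1 was left out, which ended the call). PRT1, the b subunit of eIF3, was at 301 and 253 FPKM in NaCl, against 131 and 204 FPKM in YPD (log2 change 0.75 ± 0.21, limma adjusted p = 0.033). FUN12, which encodes eIF5B, the factor that joins the subunits, was at 277 and 275 FPKM in NaCl, against 173 and 210 FPKM in YPD (0.53 ± 0.16, limma adjusted p = 0.038). The call of PRT1 ended without either NaCl library or YPD replicate 1 (adjusted p up to 0.18). That of FUN12 ended without either NaCl library, either sorbitol library or YPD replicate 1 (up to 0.20) and without the intensity trend (0.058).

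The subunits of eIF2, on which eIF5 acts, were not called in NaCl. SUI2, the alpha subunit, averaged 462 ± 21.9 FPKM in NaCl and 360 ± 41.0 FPKM in YPD. SUI3, the beta subunit, averaged 332 ± 37.3 FPKM in NaCl and 298 ± 32.6 FPKM in YPD. GCD11, the gamma subunit and GTPase, averaged 264 ± 28.7 FPKM in NaCl and 269 ± 31.2 FPKM in YPD. Their log2 changes were 0.36, 0.15 and -0.03, with limma adjusted p of 0.13, 0.51 and 0.90. NIP1, the c subunit of eIF3 that binds eIF5, changed by 0.18 ± 0.19 log2 units (adjusted p = 0.52). The other eIF3 subunit genes TIF34 (-0.32), TIF35 (-0.19) and HCR1 (0.17), the eIF1A gene TIF11 (0.41) and the eIF4G scaffold gene TIF4631 (0.07) were not called either. TIF11 differed between the NaCl libraries themselves, at 830 and 1372 FPKM.

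Against YPD, 1 initiation factor gene of 19 rose in KCl and 1 in sorbitol, and 0 fell in either by limma. These counts are near the 6.45% of all genes called higher in KCl and the 3.75% in sorbitol. At an unadjusted p under 0.05, 3 of the 19 were higher in KCl and 9 in sorbitol, beside 894 and 803 of the 5765 genes. In sorbitol that is a larger share than over all genes. FUN12 was at 334 and 261 FPKM in KCl, against 173 and 210 FPKM in YPD (log2 change 0.63 ± 0.16, limma adjusted p = 0.040), and lost the call when any library except KCl replicate 2 was left out (adjusted p up to 0.24), without the intensity trend and with only the 2 media compared (up to 0.084). TIF4631 was at 259 and 272 FPKM in sorbitol, against 161 and 171 FPKM in YPD (0.67 ± 0.12, limma adjusted p = 0.030), and lost the call without any NaCl, sorbitol or YPD library (up to 0.16), with libraries scaled to the same total, without the trend and with only the 2 media compared (up to 0.067). The list medians were 0.18 in KCl and 0.38 in sorbitol. The sorbitol median was 0.24 under quantile normalization and 0.16 with libraries scaled to the same total. In NaCl 1 of the 19 was lower than in KCl, where 3.99% of all genes were, and 6 were lower than in sorbitol, where 13.6% of all genes were. The 6 became 1 with libraries scaled to the same total, 2 without NaCl replicate 2 or sorbitol replicate 1, and 3 without NaCl replicate 1 or sorbitol replicate 2.

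**Figure D3:**
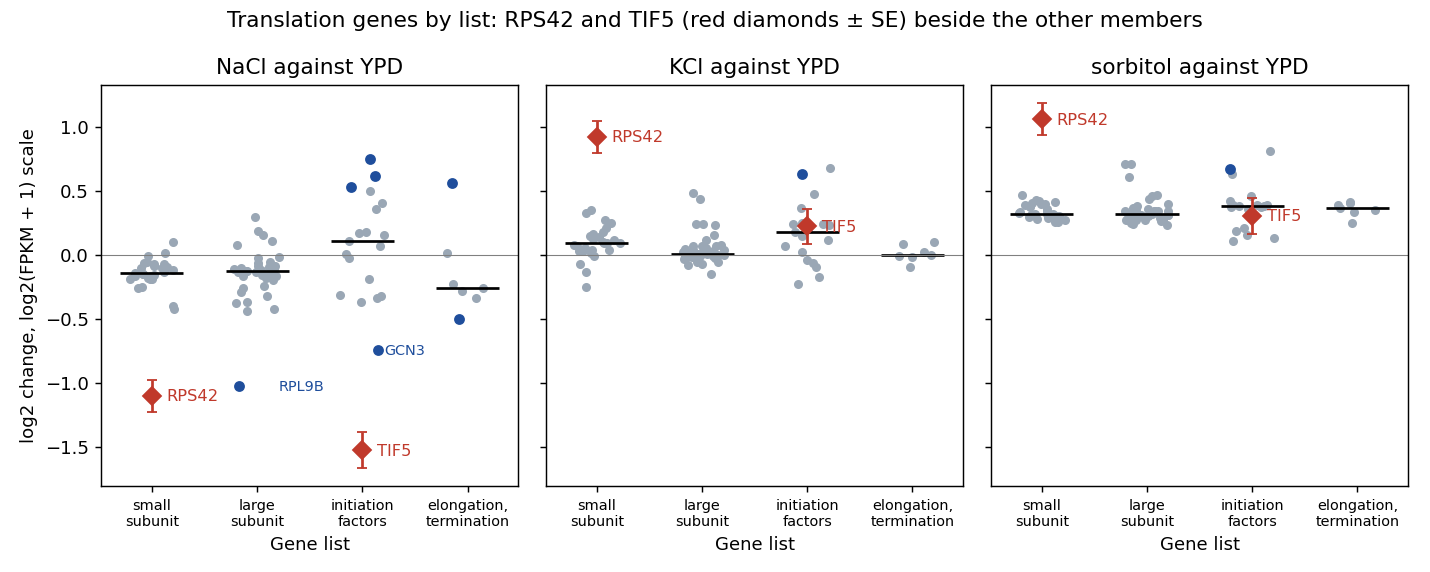
Log2 change against YPD in NaCl (left), KCl (middle) and sorbitol (right) for 4 lists of translation genes. Red diamonds are RPS42 and TIF5 with the standard error, blue points are other genes called at an adjusted p under 0.05, grey points are genes not called and black lines are the list medians without the pair. In NaCl RPS42 (-1.10) and TIF5 (-1.53) lie below every other gene drawn, RPL9B (-1.02) and GCN3 (-0.74) come next, and RPS42 is the highest gene drawn in KCl (0.92) and in sorbitol (1.06).

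The pattern of a low level in NaCl was also looked for in the other translation genes. Of all genes tested, 3.02% (174 genes) were called lower in NaCl than in each of the 3 other media, and the pair was chosen for that pattern. Leaving out a library gave between 43 and 142 genes, with 43 without NaCl replicate 1, 86 without NaCl replicate 2 and 60 without KCl replicate 1. Among the rest of the lists it was met by 0 of 27 small-subunit genes, 1 of 39 large-subunit genes, 1 of 19 initiation factor genes and 0 of 7 elongation and termination factor genes, shares that are near the background. The large-subunit gene was RPL9B, which in S. cerevisiae encodes ribosomal protein L9. It was at 841 and 1102 FPKM in NaCl, 2383 and 2240 FPKM in KCl, 2726 and 2670 FPKM in sorbitol, and 1838 and 2085 FPKM in YPD. It fell against YPD, with a log2 change of -1.02 ± 0.15 (limma adjusted p = 0.0018), and its NaCl libraries did not overlap those of any other medium. The log2 difference of NaCl was -1.26 from KCl and -1.49 from sorbitol (limma adjusted p = 0.0012 and 2.2e-04), and all of these calls held under the 16 alternatives tried.

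The initiation factor gene was GCN3, the alpha subunit of eIF2B, the regulatory subunit through which phosphorylated eIF2 slows nucleotide exchange. GCN3 was at 60.8 and 69.4 FPKM in NaCl, 113 and 116 FPKM in KCl, 143 and 142 FPKM in sorbitol, and 106 and 113 FPKM in YPD. Its log2 change was -0.74 ± 0.13 against YPD (limma adjusted p = 0.0046), and the differences were -0.81 from KCl (adjusted p = 0.0062) and -1.13 from sorbitol (adjusted p = 4.9e-04). Without NaCl replicate 1 the difference from KCl was no longer called (adjusted p = 0.062). GCN3 and TIF5 were at nearly the same level in NaCl, while in the other media TIF5 was the higher. The other eIF2B subunit genes were not called in NaCl against YPD and differed in sign. The log2 changes were -0.37 for GCD2 (limma adjusted p = 0.15), -0.33 for GCD1 (0.13), 0.11 for GCD7 (0.65) and 0.50 for GCD6 (0.086).

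The large-subunit and elongation lists were compared in the same way. The 39 large-subunit genes include RPP1, which may not be a ribosomal protein gene. RPP1 had the highest log2 change of the 39 against YPD in NaCl (0.30), KCl (0.48) and sorbitol (0.71). Of the 39, RPL9B was the 1 lower in NaCl against YPD, and 0 were higher by limma. Of all genes, 16.0% were called higher there and 11.5% lower. At an unadjusted p under 0.05, 5 of the 39 were lower and 0 higher, beside 1037 lower of the 5765 genes. The large-subunit median of -0.13 turned to 0.14 under quantile normalization and to 0.04 with libraries scaled to the same total. By limma 0 of the 39 were called in KCl and 0 in sorbitol. Without adjustment, 1 of the 39 was higher in KCl and 19 in sorbitol (p under 0.05), and 0 were lower in either. Over all 5765 genes, 894 were higher in KCl and 803 in sorbitol by that cut. The share in this list was thus larger in sorbitol and smaller in KCl. The sorbitol median of the 39 shrank from 0.32 to 0.029 under quantile normalization and to 0.093 with libraries scaled to the same total. Of 7 elongation and termination factor genes, 1 rose and 1 fell in NaCl, near the shares of all genes. The release factor gene SUP35 rose in NaCl (240 and 215 FPKM, against 135 and 175 FPKM in YPD; log2 change 0.57 ± 0.17, limma adjusted p = 0.043). ANB1, which encodes eIF5A, fell in NaCl (2669 and 2818 FPKM, against 3755 and 3997 FPKM in YPD; -0.50 ± 0.12, limma adjusted p = 0.019). SUP35 lost its call under quantile normalization and without either NaCl library, either sorbitol library or YPD replicate 1 (adjusted p up to 0.23). ANB1 lost its call without any NaCl or YPD library (up to 0.13). SUP35 was not called without the intensity trend either. In KCl 0 of the 7 were called (0 at an unadjusted p under 0.05). In sorbitol 0 were called, and 5 of the 7 were higher at an unadjusted p under 0.05, beside 803 of the 5765 genes. In NaCl against sorbitol, 19 of the 39 large-subunit genes and 6 of the 7 elongation and termination factor genes were lower, where 13.6% of all genes were. Neither count is stable. The 19 became 1 under quantile normalization or without NaCl replicate 1, 3 with libraries scaled to the same total or without sorbitol replicate 1, 8 without NaCl replicate 2, and 10 without the trend or without sorbitol replicate 2. Their median of -0.47 turned to 0.083 under quantile normalization. The 6 became 1 under quantile normalization and 3 without either NaCl library or sorbitol replicate 1. In NaCl against KCl, 1 large-subunit gene (RPL9B) and 0 of the 7 were lower by limma, where 3.99% of all genes were. At an unadjusted p under 0.05, 3 of the 7 were lower, beside 679 of the 5765 genes. The large-subunit count was 2 without NaCl replicate 2 or KCl replicate 2, and 1 of the 7 was lower without KCl replicate 2.

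The genes most like RPS42 over the 8 libraries were found by Pearson's r of log2(FPKM + 1), as a description, since the libraries come in 4 media and any gene with the same order of media scores high. The highest among 5764 genes were HYPBUDRAFT_212503 (r = 0.979), LSC1 (0.979), FTR2 (0.973), HYPBUDRAFT_107647 (0.968) and HYPBUDRAFT_107563 (0.966). LSC1 encodes a subunit of succinyl-CoA ligase of the TCA cycle in S. cerevisiae, and FTR2 an iron permease in C. albicans. FTR2 averaged 122 ± 5.97 FPKM in NaCl, 427 ± 107 FPKM in KCl, 613 ± 97.9 FPKM in sorbitol and 259 ± 21.3 FPKM in YPD, a range close to that of RPS42. LSC1 had the same order of media over a narrower range, with 1641 ± 56.0 FPKM in NaCl and 1953 ± 1.73 FPKM in YPD. None of the 5 is a ribosomal protein gene by its symbol. Among the other small-subunit genes r with RPS42 was 0.910 for RPS3, the highest of them, and 0.802 for RPS4A.

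For TIF5 the highest were ARP4 (r = 0.981), LPI9 (0.979), RPL9B (0.977), FGR41 (0.975) and HYPBUDRAFT_116569 (0.971). ARP4 encodes a nuclear actin-related protein in S. cerevisiae, and RPL9B is the large-subunit gene described above. ARP4 moved over a small range, with 45.0 ± 0.691 FPKM in NaCl and 56.6 ± 0.307 FPKM in YPD, and LPI9 was at 36.5 ± 0.984 FPKM in NaCl and 61.8 ± 2.62 FPKM in YPD. GCN3 came sixth, with r = 0.963. RPS42 and TIF5 had r = 0.936 with each other, which put RPS42 at rank 29 for TIF5 and TIF5 at rank 31 for RPS42. Both were chosen for a low level in NaCl over these same libraries, so a high r between them follows from the choice. Over the 6 libraries outside NaCl r between them was 0.834, and both were lowest in YPD among those. SUI1 had the lowest r with TIF5 among the initiation factor genes, at -0.633.

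**Figure D4:**
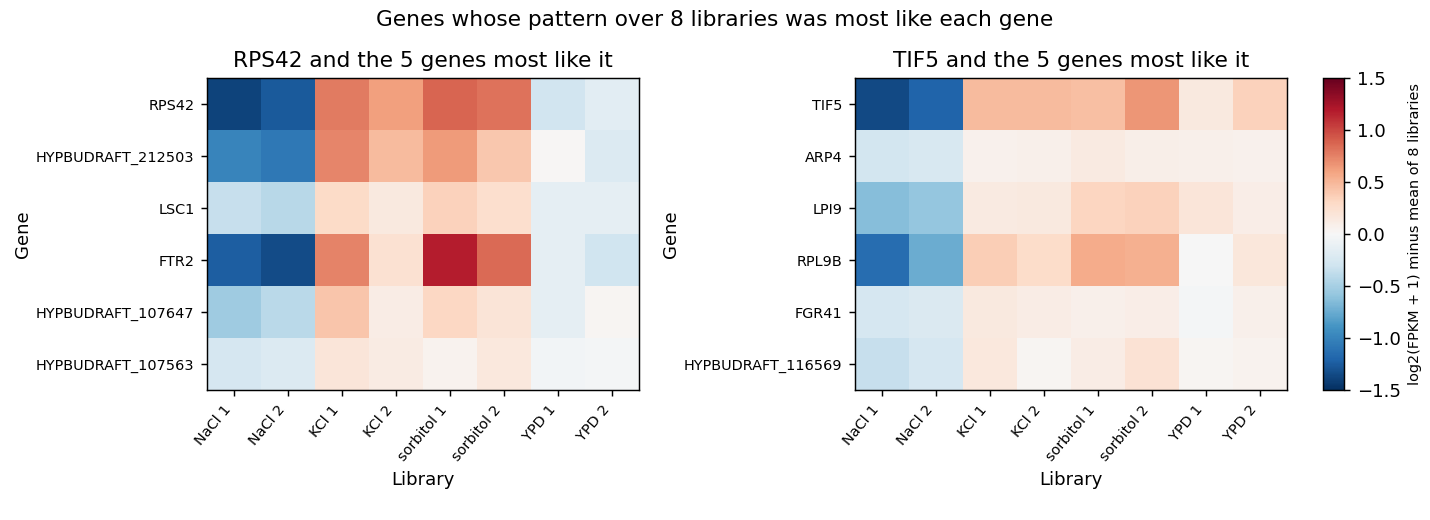
Each row is a gene and each column a library, coloured by log2(FPKM + 1) minus that gene's mean over the 8 libraries, for RPS42 (left) and TIF5 (right) with the 5 genes of highest Pearson's r. The NaCl columns are below the mean in every row, and the strength of the colours shows that FTR2, HYPBUDRAFT_212503 and RPL9B vary most among the 5 genes of their panel while ARP4, FGR41 and HYPBUDRAFT_107563 change far less.

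None of the genes next to the pair in the annotation was called lower in NaCl than in each other medium, as 3.02% of all genes were. RPS42 lies between ISN1, an IMP nucleotidase gene in S. cerevisiae, and HYPBUDRAFT_106474, and overlaps neither there. ISN1 was at 46.4 and 57.2 FPKM in NaCl, against 32.9 and 39.2 FPKM in YPD, and was not called (log2 change 0.51, limma adjusted p = 0.091). Against sorbitol, at 19.2 and 24.5 FPKM, ISN1 was higher in NaCl by 1.21 ± 0.20 log2 units (limma adjusted p = 0.0027), opposite to RPS42. HYPBUDRAFT_106474 was at 15.9 and 17.6 FPKM in NaCl, against 37.7 and 24.6 FPKM in YPD. It fell in NaCl, with a log2 change of -0.83 ± 0.23 (limma adjusted p = 0.031). That call ended without either NaCl library or YPD replicate 1. The mean of HYPBUDRAFT_106474 was also lowest in NaCl, at 16.7 FPKM, against 19.8 in KCl and 22.7 in sorbitol. It was not called between NaCl and KCl (log2 difference -0.21 ± 0.23) or sorbitol (-0.42 ± 0.23). TIF5 lies between HYPBUDRAFT_109439 and HYPBUDRAFT_6657 and overlaps neither. HYPBUDRAFT_109439 was at 31.1 and 32.7 FPKM in NaCl and 27.1 and 28.9 FPKM in YPD, and was not called. HYPBUDRAFT_6657 rose to 58.6 and 71.3 FPKM in NaCl, against 39.2 and 39.7 FPKM in YPD (0.70 ± 0.19, limma adjusted p = 0.028; up to 0.14 without any NaCl or YPD library). Both members were more abundant than their neighbours in the same library, except that HYPBUDRAFT_6657 was above TIF5 in NaCl replicate 2 and close to it in NaCl replicate 1.

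The files gave no fragment counts. In each library a step and a length offset were fitted to 69 to 126 low values. The fit maximised the share of values that, times gene length less the offset, fell near multiples of the step. With offsets of 180 to 210 nt, 87.7% to 93.1% were within 0.15 of a whole number. After random shifts of the values, without a new fit, the share was 23.2% to 34.4%. The size of the step put the depth of the deepest library, YPD replicate 2, at 2.17 times that of the shallowest, KCl replicate 2. In these steps the values of TIF5 were worth 1231 and 1591 in NaCl and 3222 to 6477 in the other media. For TIF5 this puts the relative counting error at an estimated 1.24% to 2.85%, which covers counting only and not the spread between libraries. The summed FPKM per library was between 1197308 and 1649003, lowest in NaCl replicate 1 and highest in sorbitol replicate 1. The factors of the median-ratio scaling lay between 0.992 (sorbitol replicate 2) and 1.01 (KCl replicate 1), so that scaling could change little. Whether the authors had already scaled the values between libraries is not stated and was not tested. The steps would carry any such scaling. Scaling libraries to the same total moved the median log2 change of all genes by 0.16 in NaCl against YPD, by -0.21 in sorbitol against YPD and by 0.36 in NaCl against sorbitol.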

How the data were processed

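RNA of 8 libraries was sequenced with a strand-marking kit, per the labels' protocols. TopHat and Cufflinks are named in the submitters' processing notes. Their versions, the build, the annotation and whether counting used strand were not stated there. Each deposited file gives 1 value per gene, taken as FPKM made by the authors because values are not whole and their sums differ between libraries. Of 6166 genes, 6157 were matched on locus tag to RefSeq's Hypbu1 annotation of another strain, with a symbol for 2346. Positions in that annotation served to find neighbouring genes and whether they overlap. Sequences were not used here.

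The 5765 genes that reached 1 FPKM in 2 or more libraries entered a single limma 3.58.1 model (R 4.3.3) of log2(FPKM + 1) over the 4 media, with an intensity trend and 4 residual degrees of freedom (8.31 with the prior). Benjamini-Hochberg adjustment ran over all these genes per comparison, with calls at an adjusted p under 0.05. Scripts were tested on simulated data. The pair, the lists (by symbol) and the rule for named genes (the pair, the 5 most alike genes by r, partners of eIF5, the 4 largest called changes per list and comparison with YPD, list genes lower in NaCl than in each other medium, neighbours in the annotation) were chosen with earlier results of these data known. KCl against sorbitol, and counts of list genes lower in NaCl than in KCl or sorbitol, were added after seeing the data. The closest homologue by protein was not analysed here. Alternatives changed the pseudocount, the filter, the scaling, the trend, the media fitted, the replicate block or left out a library. Lists leave out the pair.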

Additional observations from a re-analysis of the deposited data

How the results depend on the processing

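Of 699 recomputed values, 599 stayed the same in call or close in size, 96 moved and 4 turned in direction. The 599 include list counts, which have no direction and were allowed small changes. They also include log2 values that the design keeps from moving, so the tally is no measure of stability. Such values arise with the replicate block, or when the library left out is from a medium outside the comparison. Leaving out a library gave 306 of the 599. Log2 values under quantile normalization were -1.21 (NaCl against YPD), 0.83 (sorbitol against YPD), -2.04 (NaCl against sorbitol) and 0.016 (KCl against sorbitol) for RPS42. With libraries scaled to the same total they were -0.93 (NaCl against YPD), 0.84 (sorbitol against YPD), -1.87 (NaCl against KCl), -1.77 (NaCl against sorbitol) and 0.10 (KCl against sorbitol) for RPS42. For TIF5 they were -1.36, 0.079, -1.60, -1.44 and 0.16 in the same order. Leaving out a library gave TIF5 in KCl against sorbitol between -0.19 and 0.027.

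Counts of list genes called moved as follows, and the cause was not tested. Small-subunit genes higher in NaCl than in YPD numbered 4 (quantile) or 1 (same total), and lower ones 2 (only the 2 media compared) or 0 to 2 (leaving out a library). Small-subunit genes higher in KCl than in YPD numbered 2 (quantile) and 2 (same total). Large-subunit genes higher in NaCl numbered 9 (quantile) or 1 (same total), and lower ones 2 (only the 2 media) or 1 to 2 (leaving out a library). Large-subunit genes higher in sorbitol numbered 0 to 1 (leaving out a library). Elongation and termination factors higher in NaCl numbered 0 (quantile), 0 (no trend) or 0 to 1 (leaving out a library), and lower ones 0 to 1 (leaving out a library). Initiation factors higher in NaCl numbered 5 (same total) or 0 to 3 (leaving out a library), and lower ones 2 (quantile). In KCl, 0 were higher without the trend and 0 to 1 leaving out a library. In sorbitol, 0 were higher under the same total, without the trend and with only the 2 media compared, and 0 to 1 leaving out a library. Small-subunit genes lower in NaCl than in KCl numbered 2 (same total) or 0 to 2 (leaving out a library). Those lower than in sorbitol numbered 1 (quantile), 2 (same total), 4 (no trend) or 1 to 23 (leaving out a library). Large-subunit genes lower in NaCl than in KCl numbered 1 to 2 (leaving out a library), and those lower than in sorbitol 1 (quantile), 3 (same total), 10 (no trend) or 1 to 28 (leaving out a library). Elongation and termination factors lower in NaCl than in KCl numbered 0 to 1 (leaving out a library), and those lower than in sorbitol 1 (quantile) or 3 to 6 (leaving out a library). Initiation factors lower in NaCl than in KCl numbered 0 to 1 (leaving out a library), and those lower than in sorbitol 1 (same total) or 2 to 7 (leaving out a library). Genes lower in NaCl than in each other medium numbered 100 (same total) or 43 to 142 (leaving out a library).

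Replicate numbers pair nothing by the labels, and deviations of same-numbered libraries correlated between -0.13 (NaCl and YPD) and 0.45 (KCl and sorbitol). The replicate block left the log2 values as they were, which was fixed by the design, because every medium has both replicate numbers. With the block, 2 large-subunit genes were lower in NaCl and 1 was higher in sorbitol than in YPD. Initiation factors higher than in YPD numbered 2 in KCl and 2 in sorbitol, 1 small-subunit gene and 2 large-subunit genes were lower in NaCl than in KCl, and 224 genes were lower in NaCl than in each other medium.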
